A study of Mus musculus with 15 samples.

Results

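Long noncoding RNAs that stay in the nucleus or carry small nucleolar RNAs (snoRNAs) in their introns were followed in mouse embryonic stem cells (ESCs) depleted of TET1 or TET2. The set was defined by name and held 10 RNAs, namely Malat1, Neat1, Miat, Gas5, Snhg1, Snhg3, Snhg6, Snhg8, Snhg11 and Snhg12. Of these, 8 had a row among the 26061 genes of the deposited table, and Snhg6 and Snhg8 were not found there under their symbol or a RefSeq synonym. All 8 were read in each of the 15 libraries and passed the filter on low values.

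Total RNA was depleted of rRNA and sequenced from E14 ESCs, a line of 129/Ola background grown without feeders in 15% serum with LIF. Every culture was transduced with a lentiviral pLKO.1 hairpin, selected with 1 µg/ml puromycin from 24 hours after infection and collected 3 days later, so that the control cells shared these steps. The 3 groups of 5 libraries carried a non-targeting hairpin (shScr), a hairpin against Tet1 (shTet1) or a hairpin against Tet2 (shTet2), and the labels name 1 hairpin for each target. Nothing in the labels says that replicates were separate cultures, so that the p-values measure the spread between these libraries, which may be technical. RNA was extracted in either of 2 ways, and the labels tell neither which library had which nor any batch.

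Malat1 is a very abundant transcript of nuclear speckles, the bodies that hold splicing factors. Neat1 is the scaffold RNA of paraspeckles, and its long isoform is needed to build them. Miat, also called Gomafu, is a nuclear RNA known from neurons. In the snoRNA host genes, the introns are processed into snoRNAs that guide modification of rRNA, while the spliced exons are mostly not translated into a stable protein and, for Gas5 and several Snhg RNAs, are degraded by nonsense-mediated decay when ribosomes engage them. Many host genes start with a 5′ terminal oligopyrimidine tract, as ribosomal protein genes do.

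The start sites of the set are shown because many host genes start with this tract. RefSeq promoter sequences (GRCm38.p6) were matched for 8 of the 10 RNAs, with 2 starts for Gas5. Each line below runs from 10 bases before the start to 20 bases from it, 5′ to 3′ on the gene's strand. Capitals mark a run of at least 5 C or T that began within 5 bases of the start.
Gas5, upstream start (chr1:161034591-161034620, plus strand): gcgggcccgcgagctcgacagcccggagcc
Gas5, downstream start (chr1:161035156-161035185, plus strand): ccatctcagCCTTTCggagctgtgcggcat
Snhg1 (chr19:8723477-8723506, plus strand): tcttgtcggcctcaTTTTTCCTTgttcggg
Snhg3 (chr4:132353667-132353696, minus strand): gaccacgcctgaCTTCCgggcgttacttaa
Snhg8 (chr3:123508317-123508346, minus strand): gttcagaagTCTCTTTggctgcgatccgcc
Snhg12 (chr4:132308668-132308697, plus strand): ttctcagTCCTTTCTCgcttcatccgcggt
Snhg11 (chr2:158375703-158375732, plus strand): tgcggcactcactcacgcactcagcctgct
Miat (chr5:112228929-112228958, minus strand): tcgcagtagCCCCTTTgtgaggcgcgggag
Malat1 (chr19:5802653-5802682, minus strand): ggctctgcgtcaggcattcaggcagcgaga

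Such a run was found at 6 of the 9 starts, which belong to 6 of the 8 RNAs. It was found at 22.0% of the 32851 promoters in the same RefSeq table, read on the gene's strand only. It was longest, at 9 bases, in Snhg1 and Snhg12. The windows of the host Snhg11 and of Malat1 held no such run, whereas that of Miat, which is not among the hosts, did. A match describes these letters and is not evidence of a regulatory site.

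The snoRNAs inside the hosts are shown because reads from them share bases with the host in the annotation. GENCODE vM1 (mm9) places 25 snoRNAs within 5 of the hosts. Gas5 held 9 and Snhg1 held 8, all named as the box C/D type that guides 2′-O-methylation. Snhg12 held 4, and Snhg3 and Snhg11 held 2 each, mostly of the H/ACA type that guides pseudouridylation. Examples from Gas5 (plus strand of chromosome 1), Snhg1 (plus strand of chromosome 19) and Snhg12 (plus strand of chromosome 4) follow, 5′ to 3′, with the letters TGATGA of the C box and CTGA of the D box in capitals.
SNORD44 of Gas5 (chr1:162966813-162966872): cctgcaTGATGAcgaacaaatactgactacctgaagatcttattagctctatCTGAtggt
Snord47 of Gas5 (chr1:162968213-162968289): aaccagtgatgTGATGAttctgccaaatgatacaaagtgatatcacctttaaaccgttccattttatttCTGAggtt
SNORD81 of Gas5 (chr1:162968439-162968514): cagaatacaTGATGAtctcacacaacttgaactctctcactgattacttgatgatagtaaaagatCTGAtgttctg
SNORD25 of Snhg1 (chr19:8798486-8798550): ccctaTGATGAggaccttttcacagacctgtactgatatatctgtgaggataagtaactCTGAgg
SNORD27 of Snhg1 (chr19:8799021-8799092): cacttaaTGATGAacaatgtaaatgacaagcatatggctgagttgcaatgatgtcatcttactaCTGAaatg
SNORD31 of Snhg1 (chr19:8800084-8800150): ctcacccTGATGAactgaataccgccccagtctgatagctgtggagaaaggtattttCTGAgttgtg
Snord99 of Snhg12 (chr4:131866606-131866679): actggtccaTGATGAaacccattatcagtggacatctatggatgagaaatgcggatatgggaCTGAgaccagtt

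TGATGA in the first 20 bases together with CTGA in the last 15 bases was found in 13 of the 18 box C/D snoRNAs of the hosts, and in 69.9% of the 346 annotated genes of that type, searched on the gene's strand. None of the 25 snoRNAs had a row of its own in the gene table, whereas 22 of them shared bases with an annotated exon of a host transcript. Reads from snoRNA sequence and reads from host exons can therefore not be told apart in the host values.

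Reads in genes ranged from 15258291 to 35432425 per library, and 10 ESC markers, among them Pou5f1 and Zfp42, summed to 103821 to 123742 normalised reads in shScr, 116043 to 143797 in shTet1 and 93147 to 114419 in shTet2. The hairpins lowered their targets in each library against all shScr libraries. Tet1 differed by −1.84 in shTet1 (adjusted p = 0.000228) and Tet2 by −1.90 in shTet2 (adjusted p = 3.67e-07), on the deposited log2-like scale. Genes of the olfactory and vomeronasal receptors, 1439 in number and not known to act in ESCs, took 53.3 to 63.4 of every 1000000 gene reads in 4 libraries (replicate 4 of each group and shTet1 replicate 3) and 9.43 to 26.3 in the other 11. All differences below are on the deposited scale, on which 1 unit is close to a doubling for well-read genes.

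Malat1 was by far the most abundant of the set. Per kilobase of annotated exon, its normalised reads averaged 13219 ± 3064 (SD over 15 libraries), and every library of Malat1 lay above every library of the other RNAs. It was the third most abundant gene of the whole table by mean value and took 0.297% to 0.701% of all gene reads. Snhg1 (2666 ± 656), Gas5 (2346 ± 465) and Snhg3 (2085 ± 622) followed on the same scale. The order among these hosts was not fixed, as Snhg1 exceeded Gas5 in 10 of 15 libraries and Gas5 exceeded Snhg3 in 9. Snhg12 came next with 1245 ± 297 and was below Snhg3 in 14 of 15 libraries, although their ranges overlapped.

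**Figure D1:**
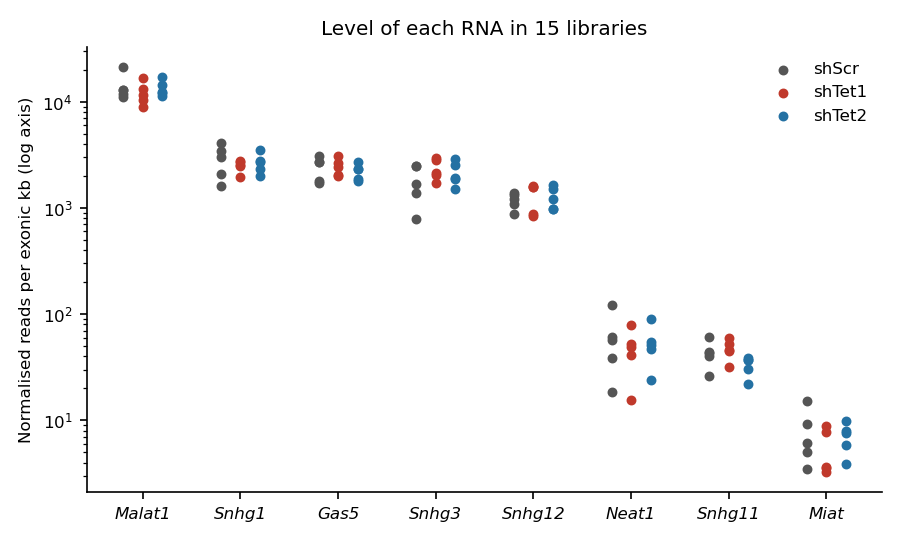
Normalised reads per kilobase of annotated exon (log axis) for the 8 RNAs, with 1 point for each library, coloured by group. Malat1 lies between 9001 and 21125 and Miat between 3.25 and 15.2, with the abundant hosts Snhg1, Gas5, Snhg3 and Snhg12 in between and Neat1 and Snhg11 below them.

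Neat1 and Snhg11 were far below these hosts per kilobase of exon. By mean value they ranked 4447th and 7445th of the 26061 genes of the table. Neat1 averaged 53.4 ± 27.7 normalised reads per kilobase and Snhg11 averaged 40.9 ± 11.1, with Neat1 above in 9 of 15 libraries and overlapping ranges. Malat1 and Neat1 lie close to each other on chromosome 19 (5795690 to 5802671 and 5824708 to 5845478, mm9, minus strand), yet Malat1 reads per kilobase exceeded those of Neat1 by 173-fold to 665-fold within a library. Miat was the lowest of the set with 6.75 ± 3.26 normalised reads per kilobase, and even its highest library (15.2) was below the lowest library of Neat1 (15.5). Exon lengths are those of GENCODE vM1 and may differ from the gene models that the authors counted over. They are 20.8 kb for Neat1 and 6.98 kb for Malat1, which enters the ratio of the 2 RNAs. Without division by length, mean normalised reads were 1108 for Neat1 and 92294 for Malat1.

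No RNA of the set passed in the main fit across all genes, which held the group alone and no term for the replicate number. The question for each hairpin was whether loss of the enzyme changed these RNAs relative to shScr. In shTet1 against shScr, 0 of 8 passed an adjusted p of 0.05 in limma, where 0.0718% of all genes did, and the lowest adjusted p among the 8 was 0.503. In shTet2 against shScr, 0 of 8 passed beside 0.39% of all genes, with a lowest adjusted p of 0.606. In shTet2 against shTet1, 0 of 8 passed beside 4.24% of all genes, and the lowest adjusted p was 0.270.

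Without adjustment for the number of genes, 0, 0 and 1 of 8 had a p under 0.05 in this fit. Of all genes, 11.8%, 11.6% and 15.7% did so. With the replicate number as a block, it was 1 of 8 in shTet1 and 1 of 8 in shTet2 against shScr. Of the 19490 genes tested, 4093 and 3977 then did so. In shTet2 against shTet1 with the block, 1 of 8 passed an adjusted p of 0.05 in limma, beside 11.2% of all genes. The limma voom fit on recovered reads, without the block, called 0 of 8 in each comparison. The median difference of the 8 RNAs was −0.04 in shTet1 and −0.04 in shTet2 against shScr, beside 0.01 and 0.04 over all genes tested, and the values of the groups overlapped for 8 of 8 RNAs in each comparison. Across all genes, the groups did not overlap for 2.62%, 2.7% and 6.04% in the same order. The comparisons share libraries and are not independent.

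**Figure D2:**
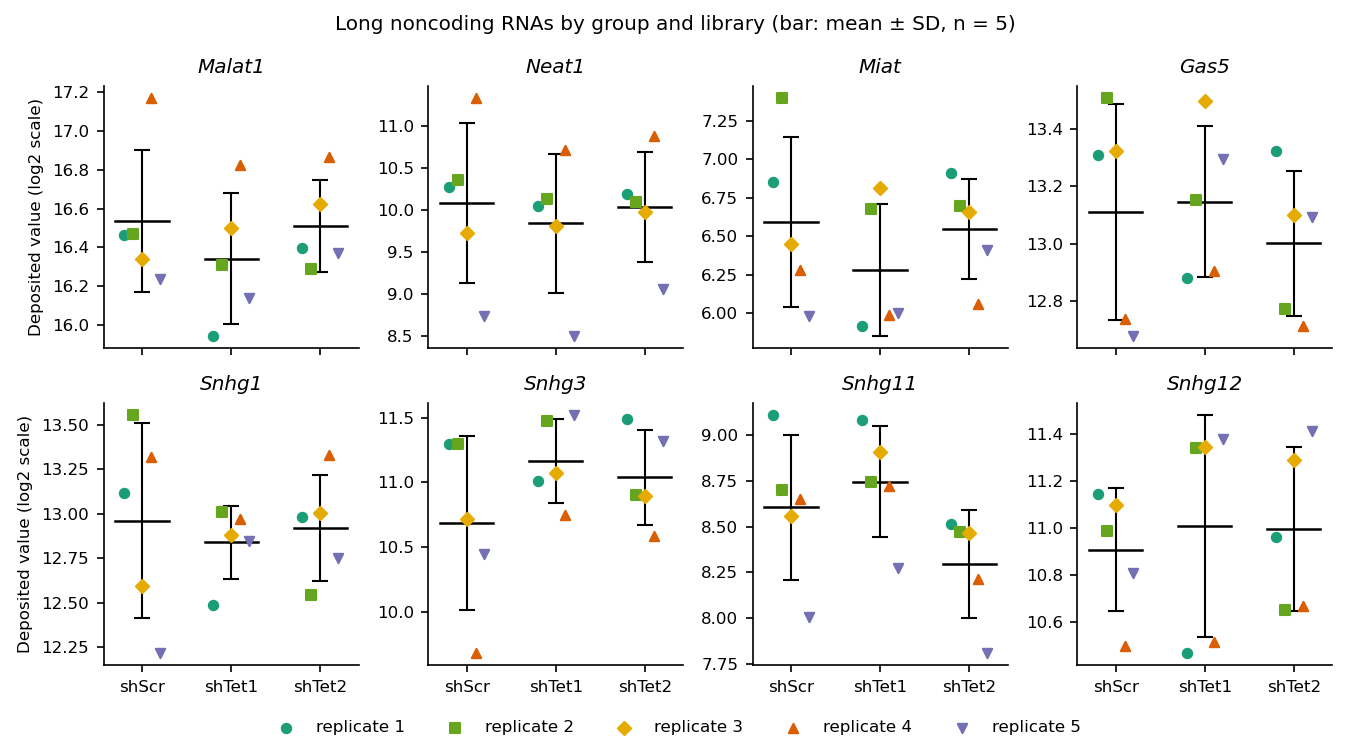
Deposited values (log2 scale, separate axes that do not start at 0) of the 8 RNAs in the 5 libraries of each group, with bars for mean ± SD and symbols for the replicate number. Groups overlap in every panel, and in the Neat1 panel replicate 4 is highest and replicate 5 lowest in all 3 groups.

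Malat1 in shScr replicates 1 to 5 was 16.46, 16.47, 16.34, 17.17 and 16.24. In shTet1 it was 15.94, 16.31, 16.50, 16.82 and 16.14, and in shTet2 it was 16.39, 16.29, 16.62, 16.87 and 16.37. Replicate 4 was the highest library of each group. Group means were 16.54 ± 0.37 for shScr, 16.34 ± 0.34 for shTet1 and 16.51 ± 0.24 for shTet2 (SD over 5 libraries). Relative to shScr, the difference was −0.19 for shTet1 (95% confidence interval −0.60 to 0.21) and −0.03 for shTet2 (−0.43 to 0.38). Within replicates 1 and 2 these differences were −0.34 and −0.13, and within replicates 3 to 5 they were −0.09 and 0.04.

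Neat1 varied far more between libraries than between groups. Replicates 1 to 5 of shScr held 10.27, 10.36, 9.72, 11.33 and 8.73. Those of shTet1 held 10.04, 10.13, 9.81, 10.72 and 8.49, and those of shTet2 held 10.19, 10.09, 9.97, 10.88 and 9.05. All groups followed the same order at the ends, with replicate 4 highest and replicate 5 lowest. Normalised Neat1 reads thus went from 323 to 2542 across the 15 libraries, a 7.88-fold range. Against shScr, Neat1 differed by −0.25 for shTet1 (95% confidence interval −1.14 to 0.65) and −0.04 for shTet2 (−0.94 to 0.85). With the replicate number as a block, the interval for shTet1 was −0.50 to 0.01 and the RNA still did not pass. Within replicates 1 and 2 the differences were −0.23 and −0.17, and within replicates 3 to 5 they were −0.26 and 0.04.

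Miat had few reads, 28 to 108 per library, and ranked 11536th of the gene table by mean value. Replicates 1 to 5 read 6.85, 7.40, 6.45, 6.28 and 5.98 for shScr, 5.92, 6.68, 6.82, 5.99 and 6.0 for shTet1, and 6.91, 6.70, 6.66, 6.06 and 6.41 for shTet2. The groups overlapped widely. Compared with shScr, Miat differed by −0.31 for shTet1 (95% confidence interval −0.85 to 0.23) and −0.04 for shTet2 (−0.58 to 0.49). For shTet1 it was −0.83 within replicates 1 and 2 and 0.03 within replicates 3 to 5.

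Gas5, the host whose spliced RNA accumulates when growth stops, had the smallest spread of the set. It was 13.31, 13.51, 13.32, 12.74 and 12.68 in the shScr replicates 1 to 5, 12.88, 13.15, 13.50, 12.91 and 13.30 in those of shTet1, and 13.32, 12.77, 13.10, 12.71 and 13.09 in those of shTet2. The highest and lowest libraries of the set of 15 were both in shScr. Gas5 differed from shScr by 0.04 for shTet1 (95% confidence interval −0.34 to 0.41) and −0.11 for shTet2 (−0.49 to 0.27). The direction for shTet1 changed with the libraries, at −0.39 within replicates 1 and 2 and 0.32 within replicates 3 to 5.

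Snhg1, whose introns hold a run of box C/D snoRNAs, was 13.11, 13.56, 12.59, 13.32 and 12.22 in the shScr libraries. It was 12.49, 13.01, 12.88, 12.97 and 12.85 in those of shTet1 and 12.98, 12.54, 13.00, 13.33 and 12.75 in those of shTet2. The shScr libraries spanned the values of both knockdowns. Snhg1 differed from shScr by −0.12 for shTet1 (95% confidence interval −0.57 to 0.32) and −0.04 for shTet2 (−0.49 to 0.41). Within replicates 1 and 2 it was −0.59 and −0.57, and within replicates 3 to 5 it was 0.19 and 0.32.

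Snhg12, another host, was 11.15, 10.99, 11.10, 10.50 and 10.81 in the 5 shScr libraries, 10.47, 11.34, 11.34, 10.51 and 11.38 in those of shTet1, and 10.96, 10.65, 11.29, 10.67 and 11.42 in those of shTet2. Groups overlapped over nearly their whole ranges. Snhg12 differed from shScr by 0.10 for shTet1 (95% confidence interval −0.34 to 0.54) and 0.09 for shTet2 (−0.35 to 0.53). Within replicates 1 and 2 it was −0.16 and −0.26, and within replicates 3 to 5 it was 0.28 and 0.32.

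Snhg3, host of the H/ACA snoRNAs Snora73a and Snora73b, had the largest difference between a knockdown and shScr when all libraries were used. It was 11.29, 11.29, 10.71, 9.68 and 10.45 in the shScr libraries, 11.01, 11.47, 11.07, 10.75 and 11.52 in the shTet1 libraries, and 11.49, 10.90, 10.89, 10.58 and 11.32 in the shTet2 libraries. Replicate 4 was the lowest library of each group, and lowest of all in shScr. Snhg3 differed from shScr by 0.48 for shTet1 (95% confidence interval −0.07 to 1.03, adjusted p = 0.503) and 0.35 for shTet2 (−0.20 to 0.90, adjusted p = 0.678). For shTet1 the difference was −0.05 within replicates 1 and 2 and 0.83 within replicates 3 to 5, and it was 0.33 without replicate 4 of all groups. It ranged from 0.23 to 0.63 when 1 library was left out, and at the low end, without shScr replicate 4, the shTet1 difference of Miat was larger in size at −0.39. The interval from the fit with the group alone leaves room for no change as well as for a doubling. With the replicate number as a block, the shTet1 interval was 0.10 to 0.86, and Snhg3 still did not pass (limma, adjusted p = 0.136).

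Snhg3 shares annotation with neighbours on chromosome 4 (131903929 to 131909601, mm9, minus strand). Of its exonic bases, 13.7% lie in exons of Rcc1 on the same strand and 71.5% in exons of Gm17300 on the opposite strand. Rcc1, which codes for the exchange factor of the GTPase Ran, was also lowest in replicate 4 of each group, at 10.21, 10.90 and 10.61 beside 11.00 to 11.65 in the other libraries. As the use of strand in the counting is not stated, reads of the overlapping genes cannot be assigned with certainty. In Malat1, 6.09% of the exonic bases overlap Gm20417 on the opposite strand. Over the 15 libraries Gm17300 was at 5.81 to 7.59 and Gm20417 at 6.68 to 9.02, below the RNAs that they overlap. The use of strand was not tested.

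Snhg11, annotated as protein-coding in GENCODE vM1 and host of 2 snoRNAs named SNORA71, had its lowest mean in shTet2. It was 9.11, 8.70, 8.56, 8.65 and 8.01 in the shScr libraries, 9.09, 8.75, 8.91, 8.72 and 8.28 in the shTet1 libraries, and 8.51, 8.47, 8.46, 8.21 and 7.81 in the shTet2 libraries. The shTet2 library was the lower in 5 of 5 same-numbered pairs against shTet1 and in 5 of 5 against shScr, while the groups overlapped. The difference between shTet2 and shTet1 was −0.45 (SE 0.20, 95% confidence interval −0.88 to −0.03, adjusted p = 0.270, two-sided exact permutation p = 0.0317). Mean normalised reads in shTet2 were 70.5% of those in shTet1. The smallest p that 5 against 5 libraries can give is 0.00794.

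Replicate numbers paired the libraries in this comparison, and Snhg11 was the 1 RNA of the set that passed when the number was added as a block. The interval then became −0.68 to −0.23 and the adjusted p 0.0113, where 11.2% of all genes passed. The adjusted p ranged from 0.0113 to 0.636 over 27 alternatives without and with the block. With the block kept and each of the 15 libraries left out in turn, it ranged from 0.00900 to 0.0471, and the difference from −0.49 to −0.40. The difference was −0.42 within replicates 1 and 2 and −0.47 within replicates 3 to 5. Against shScr, Snhg11 differed by −0.31 in shTet2 (95% confidence interval −0.73 to 0.11) and by 0.14 in shTet1 (−0.28 to 0.56), neither of which passed. With the block, the shTet2 interval against shScr was −0.54 to −0.09 and the adjusted p in limma 0.111. That comparison was not taken as paired.

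Snhg11 is known from neurons, and summed reads of 8 neuron markers were 6545 to 10634 in shTet1 and 7282 to 9463 in shTet2. No marker was at 0 throughout a group, but Stmn2 alone gave most of both sums, followed by Nefl and Tubb3. Rbfox3, Nefm, Snap25, Syp and Dcx had means of at most 92 normalised reads in either group. Mean Snap25 was 10 in shTet1 and 12 in shTet2, and mean Dcx was 2 and 3. The sums therefore mainly describe Stmn2. The sum of the ESC markers was, like Snhg11, lower in shTet2 (93147 to 114419) than in shTet1 (116043 to 143797), without overlap. So was that of markers of primitive endoderm, the extraembryonic lineage that ESCs can form, with overlap. All 7 of these had reads in both groups, and their sum was 380 to 669 in shTet1 and 186 to 475 in shTet2. The part of either list in the Snhg11 difference was not tested. In bulk libraries, fewer cells with an RNA and less of the RNA per cell cannot be told apart.

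**Figure D3:**
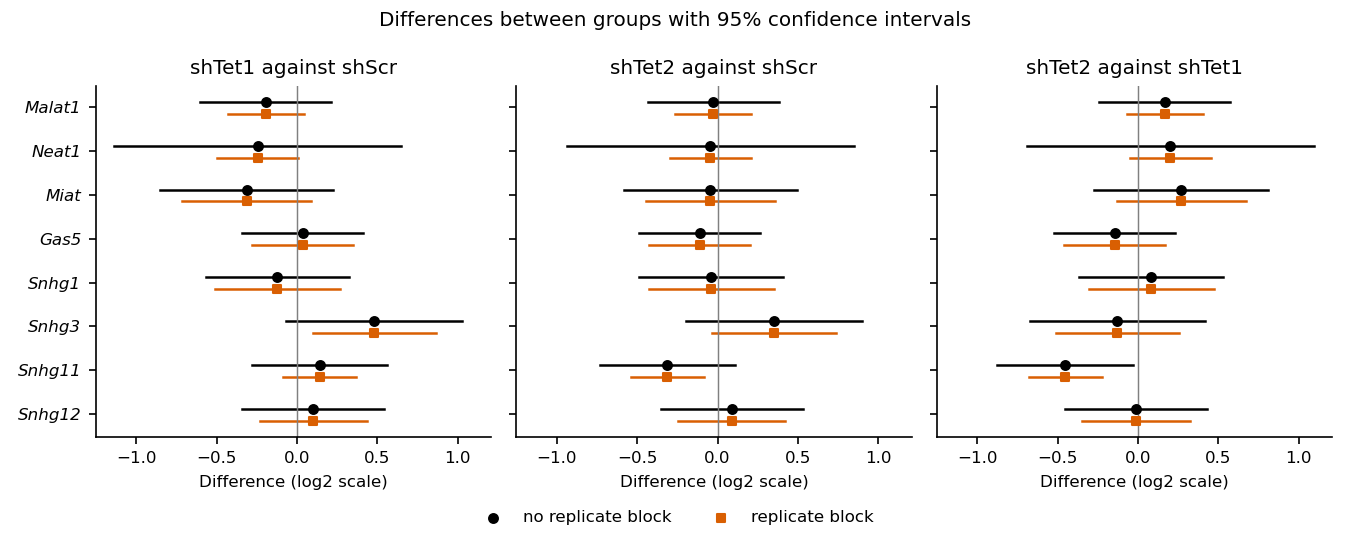
Differences between groups (log2 scale) with 95% confidence intervals for the 8 RNAs in the 3 comparisons, from the fit with the group alone (black circles) and with the replicate number as a block (orange squares). Intervals without the block include 0 in 23 of 24 tests, and for Snhg11 in shTet2 against shTet1 both intervals lie below 0. With the block, the interval of Snhg3 in shTet1 against shScr lies above 0. That of Snhg11 in shTet2 against shScr lies below 0. For shTet2 against shScr, 4 of 5 same-numbered pairs passed the check of pairing.

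The clearest pattern among these RNAs was between libraries of a group. The SD within groups was 0.30 for Gas5 to 0.82 for Neat1, and for 8 of 8 it was above 0.27, the median of the 8592 genes with a mean value of at least 8. Miat has a mean value of 6.47, below that limit. The sum of squares of each gene over the 15 libraries was split between group, replicate number and rest. For Neat1, 94.4% fell to the replicate number and 2.08% to the group. The replicate share was 75.9% for Malat1 and 65.8% for Snhg11, beside a median of 49.8% for the 8592 genes. It was 55.2% for Miat, 54.8% for Snhg12, 50.8% for Snhg3, 39.8% for Gas5 and 35.3% for Snhg1.

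**Figure D4:**
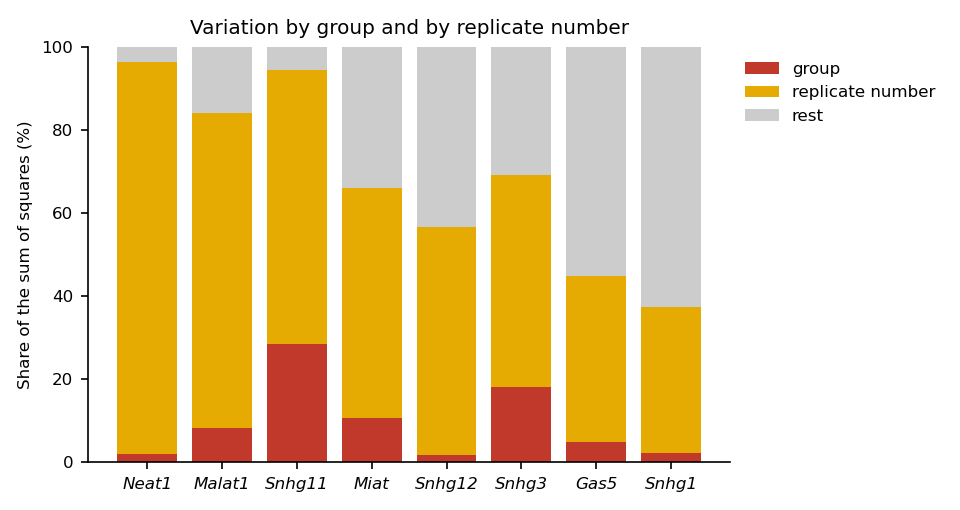
Share of the sum of squares (in percent) of each RNA over 15 libraries that fell to the group (red), the replicate number (yellow) and the rest (grey). The replicate number takes 94.4% for Neat1 and 35.3% for Snhg1, and the group takes between 1.81% and 28.6%.

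The RNAs did not move together along the replicate numbers. Mean Neat1 over the groups was 10.98 in replicate 4 and 8.76 in replicate 5, and mean Malat1 was 16.95 and 16.25. Snhg3 went the other way, with its lowest mean of 10.34 in replicate 4. Snhg11 was highest in replicate 1 (mean 8.91) and lowest in replicate 5 (8.03) in all 3 groups. The 4 libraries with many receptor reads held Malat1 at 16.50 to 17.17, against 15.94 to 16.62 in the other 11, and Snhg3 at 9.68 to 11.07, against 10.45 to 11.52. Of these 4, shTet1 replicate 3 did not share the high Neat1 of replicate 4, at 9.81. The part of the receptor reads in these patterns was not tested.

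**Figure D5:**
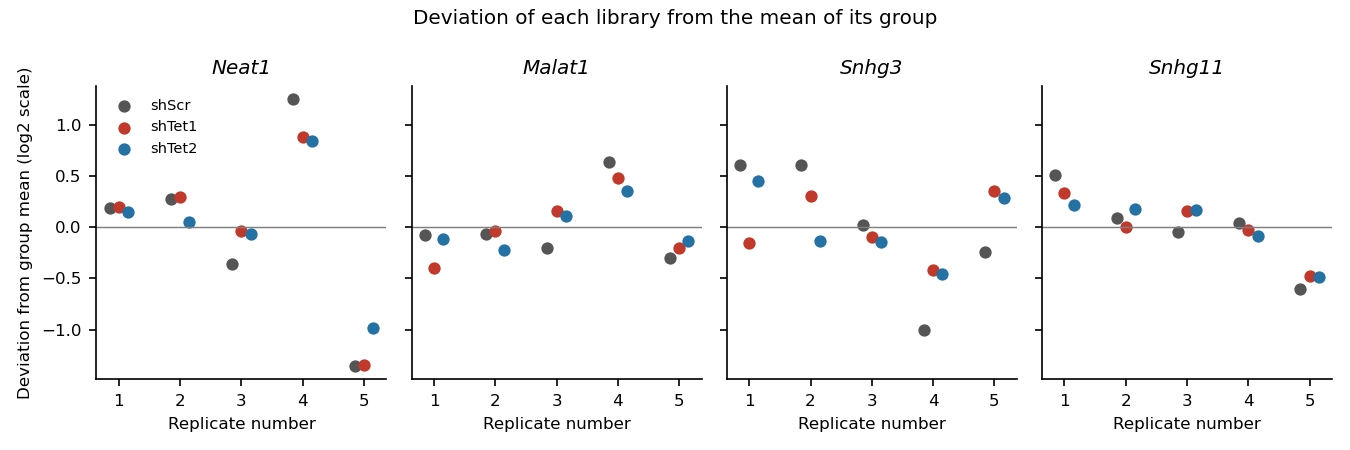
Deviation of each library from the mean of its group (log2 scale) by replicate number for Neat1, Malat1, Snhg3 and Snhg11, coloured by group. In replicate 4 of all 3 groups Neat1 and Malat1 lie above 0 and Snhg3 below 0, and in replicate 5 Neat1 and Snhg11 lie below 0.

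Other host RNAs were examined from a list of 16, of which 6 had a row. Snhg4, Snhg7 and Snhg9 were, like Snhg3, lowest in replicate 4 of each group. For Snhg7 the 3 libraries numbered 4 held 9.25 to 9.59, and the other libraries 9.58 to 11.05. The host 2410006H16Rik went the opposite way, with 12.43 to 12.80 in replicate 4 and 10.68 to 11.71 elsewhere. Snhg5 was lowest in replicate 4 in 2 of 3 groups, with 10.88 to 11.80 there and 11.15 to 12.45 elsewhere. Gas5 and Snhg12 also had their lowest mean in replicate 4, at 12.79 and 10.56, whereas Snhg1 had its highest mean there, at 13.21. These directions were not tested. None of the 6 passed in a comparison between groups, with or without the block, and 0 had an unadjusted p under 0.05 in limma. In shTet2 against shScr, where 4 of 5 pairs passed the check of pairing, 4.31% of all genes passed with the block.

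Deviations from group means were correlated between the RNAs over the 15 libraries. Of the 28 pairs, 20 had a positive r, and only some pairs are given. Libraries that share a number are not independent, so that the coefficients are descriptions. Gas5 went with Miat (r = 0.78, rho = 0.82), Snhg3 (r = 0.76, rho = 0.80) and Snhg12 (r = 0.73, rho = 0.57), and within the 9 libraries of replicates 3 to 5 r was 0.77, 0.65 and 0.86. Without the 2 libraries farthest from the median of Gas5, r was 0.71, 0.72 and 0.73. Malat1 and Neat1 had r = 0.71 and rho = 0.65, with 0.97 in replicates 3 to 5 and 0.52 without the 2 farthest libraries. Malat1 and Snhg1 had r = 0.64 and rho = 0.79, with 0.88 in replicates 3 to 5 and 0.68 without the 2 farthest libraries. Malat1 and Snhg3 had r = −0.62 and rho = −0.29, with −0.96 in replicates 3 to 5 and −0.21 without the 2 farthest libraries. Within replicates 1 and 2, r of this pair was 0.81. With 2 libraries per group, deviations mirror each other, so that this r rests on a single difference per group and decides nothing. With the mean of each replicate number also removed, r of Malat1 was 0.30 with Snhg3, 0.71 with Neat1 and 0.66 with Snhg1. That of Gas5 was then 0.86 with Miat, 0.87 with Snhg3 and 0.73 with Snhg12. Before this removal, Snhg3 had r = 0.64 with Snhg12 (rho = 0.61) and r = 0.61 with Miat (rho = 0.74). Neat1 had r = 0.64 with Snhg11 (rho = 0.32) and r = 0.63 with Snhg1 (rho = 0.75).

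The gene with the most similar deviations was named for each RNA out of 10631 candidates. It was Zmym6 for Neat1 (r = 0.95), Dgcr14 for Snhg3 (0.94), Plekha1 for Miat (0.94), Ebf1 for Malat1 (0.93), Efs for Snhg11 (0.93), Cltb for Gas5 (0.91), Ubl5 for Snhg12 (0.88) and Chic1 for Snhg1 (0.86), each over 15 libraries. With the mean of each replicate number also removed, r was 0.44 for Efs, 0.59 for Zmym6 and 0.71 for Ebf1. It was 0.85 to 0.90 for the other genes. As the highest of many coefficients, these are descriptions.

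The proteins that work with these RNAs were examined as lists. All 11 snoRNP proteins, such as Fbl and Dkc1, were tested, and 0 passed in any comparison. The same held for 12 of 12 paraspeckle proteins, which include Sfpq and Nono, for 8 of 10 listed factors of nonsense-mediated decay and for 11 of 12 speckle and SR proteins, with or without the block. At an unadjusted p under 0.05 the speckle and SR list had 1, 1 and 0 genes, the paraspeckle list 1, 0 and 0, and the other 2 lists 0 each, in the order shTet1 and shTet2 against shScr and shTet2 against shTet1. The median difference of the speckle and SR proteins to shScr was −0.10 in shTet1 and −0.18 in shTet2, with 10 and 11 of 11 below 0, while the median over all genes was 0.01 and 0.04. The other lists leaned the same way in shTet2, with 9 of 11 snoRNP proteins, 9 of 12 paraspeckle proteins, 7 of 8 decay factors and 12 of 15 protein-coding hosts below 0. Nop56, Nop58 and Dkc1 are both in the snoRNP list and among the protein-coding hosts. Over all 72 listed genes tested, the median difference in shTet2 was −0.12, beside 0.01 over genes above the minimum in all libraries.

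Among 15 protein-coding snoRNA hosts, 0 passed in the fit with the group alone. Without adjustment, 0, 0 and 1 of them had a p under 0.05. Eif4a2, an RNA helicase of translation initiation, was 14.41 ± 0.20 in shTet2 and 14.78 ± 0.03 in shTet1 (SD, n = 5 each), and these groups did not overlap. The difference was −0.36 (adjusted p = 0.143, and 0.0411 with the block, 0.0411 to 0.497 over 27 alternatives). With the block, it passed in 6 of 15 fits that left out 1 library. It was lost without shScr replicates 1 or 4, shTet1 replicates 1, 3, 4 or 5, or shTet2 replicates 2, 3 or 4.

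Other regulatory long noncoding RNAs had rows for 12 of 18 listed names, and 0 passed in the fit with the group alone, with 2, 1 and 3 at an unadjusted p under 0.05. In shTet1, 12 of 12 lay below shScr, with a median difference of −0.39 beside 0.01 over all genes. These 12 are not independent, as Meg3, Rian and Mirg lie close together on 1 strand of chromosome 12 and Xist overlaps Tsix. With the block, Xist and Tug1 passed in shTet1 against shScr, where 4.8% of all genes did. Xist, the RNA of X inactivation, was 6.69, 7.52, 5.98, 7.11 and 5.84 in shScr and 5.08, 5.87, 5.34, 5.51 and 5.64 in shTet1. It was low in each library, and the groups overlapped by little. The difference was −1.14 (adjusted p = 0.0987, and 0.0182 with the block, 0.0182 to 0.344 over 27 alternatives), and mean normalised reads in shTet1 were 21.1% of those in shScr. Xist also passed with a term for replicates 1 and 2 against 3 to 5 (adjusted p = 0.0460).

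Xist overlaps its antisense partner Tsix, which was higher, at 8.60 to 9.42 in shScr and 8.37 to 9.19 in shTet1, and reads of the pair cannot be told apart without strand. Tug1, a nuclear RNA expressed in many tissues, was 12.24 ± 0.24 in shScr and 11.76 ± 0.22 in shTet1 (SD, n = 5 each). The difference was −0.48 (adjusted p = 0.173, and 0.0213 with the block, 0.0213 to 0.438 over 27 alternatives). With the block, Xist and Tug1 each passed in 9 of 15 fits that left out 1 library. Both were lost without shScr replicates 1, 2 or 4 or shTet1 replicates 1, 2 or 4.

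In shTet2 against shTet1, H19 and Rmst passed with the block. H19, an imprinted RNA, was 8.75 ± 0.57 in shTet2 and 8.06 ± 0.60 in shTet1 (SD, n = 5 each) and was higher in shTet2 in 5 of 5 pairs. The difference was 0.69 (adjusted p = 0.315, and 0.0112 with the block, 0.0112 to 0.598 over 27 alternatives). With the block it was lost in 1 of 15 fits that left out a library, that without shTet2 replicate 4. Rmst, an RNA of neural progenitors, was low, at 5.76 ± 0.49 in shTet2 and 4.91 ± 0.27 in shTet1. The difference was 0.85 (adjusted p = 0.0674, and 0.00974 with the block, 0.00974 to 0.173 over 27 alternatives), and it passed in 15 of 15 fits with the block that left out a library. It also passed in 6 of the alternatives without the block, among them voom on recovered reads (adjusted p = 0.0496), array weights (0.0344) and the fits without shScr replicate 4 (0.0269) or shTet2 replicate 5 (0.0207). Mean normalised reads of Rmst in shTet2 were 5.49-fold those in shTet1, a ratio of values near the minimum. The libraries lay at 4.54 to 5.28 in shTet1 and 5.02 to 6.20 in shTet2, beside 4.25 for 0 reads. Differences of such low genes are compressed on the deposited scale.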

How the data were processed

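The authors trimmed reads (Trim Galore 0.3.3, per the labels), aligned them to mm9 (TopHat2 2.0.9), counted them per gene in Seqmonk and deposited DESeq2 variance-stabilised values on a log2-like scale, with 4.25 for 0 reads. When the transformation was inverted, 100% of values above this minimum came out as whole reads (tolerance 0.01). Normalised reads are these reads over the library factor of the authors. Within groups, the lowest chi-square per degree of freedom between 2 libraries was 18.3 over 30 pairs, so that no library repeated another. The repeat table was not used here.

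Deposited values were tested with limma 3.58.1 in R 4.3.3 (lmFit, eBayes with trend, two-sided) in 1 fit over 15 libraries with the group as the term. The 19490 genes above the minimum in at least 5 libraries were tested, with Benjamini-Hochberg adjustment over all of them and a threshold of 0.05. The recovered reads were modelled only by voom, as an alternative. The limma fit was also run on simulated reads. These were drawn without an effect of the replicate number, so that the run cannot show how the fit behaves with one. Alternatives were the filter, the variance trend, the libraries fitted, median centring, quantile normalisation, array weights, voom on recovered reads, the replicate block, a term for replicates 1 and 2 against 3 to 5, a stricter call and leaving out libraries. Fits without the 4 receptor-rich libraries, without replicate 4, and with the block and a library left out were added after seeing the data.

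The members, lists and tests were chosen with earlier results of these data known. Named were all members, listed genes that passed, the targets, and for each member the most correlated gene with a symbol and a mean at least 2 units above the minimum; Eif4a2, Xist, Tug1, H19 and Rmst passed with the block but not in the fit with the group alone, and neighbouring or overlapping genes and other hosts were chosen after their values were seen. Same-numbered libraries were checked for pairing by correlating their deviations from group means over genes. The coefficients were 0.374 to 0.657 for shTet1 and shScr and 0.330 to 0.731 for shTet2 and shTet1, which were taken as paired, and 0.00789 to 0.769 for shTet2 and shScr, where 4 of 5 pairs lay at 0.400 to 0.769 and replicate 3 at 0.00789. As 1 pair fell under the limit of 0.1, this comparison was not taken as paired. The first principal component of the deviations (37.9% of variance) separated replicates 1 and 2 from 3 to 5. This split was a term only in an alternative fit. The main fit held the group alone, without this term or the replicate block. Positions and exon lengths are from GENCODE vM1 (mm9) and start sites from RefSeq (GRCm38.p6).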

Additional observations from a re-analysis of the deposited data

Results flagged for a closer look

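Malat1 in shScr replicate 4 stood apart from the other libraries of its group, at 17.17 (147495 normalised reads) beside 16.47 for the next library. The gap was 0.749 of the range of the group, above Dixon's critical value of 0.71 for 5 libraries. It was the 1 case among 24 groups of values checked, where chance alone gives about 5%. Replicate 4 was also the highest Malat1 library of shTet1 and shTet2, and in each group it was among the libraries with 53.3 to 63.4 receptor reads in every 1000000 gene reads. Their part in the Malat1 value was not tested.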

How the results depend on the processing

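Over 663 alternative fits of the 8 RNAs, 16 passed the threshold, all of them Snhg11 in shTet2 against shTet1 with the replicate block, and the number of RNAs that passed there rose from 0 to 1. The block changed no other call of the set. It moved the number of genes called from 14 to 935 in shTet1 against shScr and from 827 to 2178 in shTet2 against shTet1. In shTet2 against shScr, where 4 of 5 pairs passed the check of pairing, it went from 76 to 840. The causes of the shifts below were not tested. In the order shTet1 to shScr, shTet2 to shScr and shTet2 to shTet1, genes called were 56, 283 and 1246 with array weights, 264, 266 and 1263 with a term for replicates 1 and 2 against 3 to 5, 1, 13 and 345 without the receptor-rich libraries and 1, 22 and 483 without replicate 4, where fewer libraries were fitted. Leaving out 1 library gave 1 to 171, 10 to 99 and 512 to 902. In shTet1 against shScr, 22 genes were called with the filter at all libraries, 22 with quantile normalisation and 3 with the compared groups only. In shTet2 against shScr, 39 were called with median centring, which moved the median over all genes from 0.04 to −0.07, and 45 with quantile normalisation.

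In 55 fits a difference near 0 changed sign without passing. With array weights, these were Neat1 (0.18) and Snhg1 (0.095) in shTet1 against shScr, Malat1 (0.0103), Neat1 (0.25), Snhg1 (0.092), Snhg12 (−0.0076) and Miat (0.14) in shTet2 against shScr, and Snhg1 (−0.0027) in shTet2 against shTet1. With quantile normalisation, these were Malat1 (0.0044), Gas5 (0.0048) and Snhg1 (0.058) in shTet2 against shScr and Snhg12 (0.043) in shTet2 against shTet1. With median centring, Gas5 in shTet1 (−0.016) and Snhg12 in shTet2 (−0.018) turned against shScr. Without the receptor-rich libraries, Gas5 was −0.094 in shTet1, Malat1 0.042 and Neat1 0.058 in shTet2 against shScr, and Snhg12 0.016 in shTet2 against shTet1; without replicate 4, Malat1 was 0.042 and Neat1 0.058 in shTet2. Leaving out 1 library, the differences in shTet1 against shScr went from −0.58 to 0.091 for Neat1, −0.073 to 0.13 for Gas5, −0.31 to 0.027 for Snhg1, −0.0091 to 0.27 for Snhg11 and −0.00067 to 0.24 for Snhg12. In shTet2 against shScr they went from −0.12 to 0.13 for Malat1, −0.38 to 0.27 for Neat1, −0.23 to 0.11 for Snhg1, −0.015 to 0.18 for Snhg12 and −0.20 to 0.16 for Miat. In shTet2 against shTet1 they went from −0.13 to 0.45 for Neat1, −0.020 to 0.18 for Snhg1 and −0.15 to 0.081 for Snhg12.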
